A study of Homo sapiens with 8 samples.

Results

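The regions described here are H3K9me3 intervals that were listed in drug-tolerant PC9 cells after trichostatin A and in neither of the other states. They were chosen by measured values: an autosomal interval of the DTP + TSA list was a member when it shared 0 bp with every interval of the DTP list and every interval of the Parental list. The rule was met by 15555 of the 50885 autosomal DTP + TSA intervals, or 30.6%, and these members are called TSA-only intervals below. The 3 H3K9me3 lists of the series hold 124708 intervals in all, and 2115 DTP + TSA intervals on X and Y were left out by the rule. The same rule turned round, autosomal DTP intervals that share no base with the DTP + TSA or the Parental list, was met by 10492 of 45381 DTP intervals, or 23.1%. These DTP-only intervals are the mirror set with which the TSA-only intervals are compared. Because the calls themselves chose both sets, the 2 shares are a description and nothing is read from their size.

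PC9 is an established line of human lung adenocarcinoma with an activating EGFR mutation. The DTP + TSA cells had been kept for 8 days in 1 µM erlotinib, which inhibits the EGFR kinase, and had then received 50 nM trichostatin A (TSA), an inhibitor of histone deacetylases, for 5 hours. The DTP cells, the drug-tolerant persisters that survive such exposure, had the same 8 days of erlotinib without TSA, and the Parental cells were untreated. DTP + TSA and DTP therefore share the erlotinib exposure and differ by TSA. Each state has 1 H3K9me3 ChIP-seq library, all from this 1 cell line, so differences between states were not tested and have no replicate spread. Ranges in brackets after a share are 95% intervals by the exact Clopper-Pearson method and cover counting error only. The other 5 of the 8 samples, H3K4me3 and input libraries, were not analysed here.

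H3K9me3 is the histone mark of constitutive heterochromatin. It is written by methyltransferases such as SUV39H1, SUV39H2 and SETDB1 and is bound by HP1 proteins. In most cells it lies over pericentromeric and subtelomeric repeats, transposable elements and clusters of zinc finger genes. Histone deacetylases remove acetyl groups, including the one on lysine 9 of histone H3, a residue that cannot be acetylated and methylated at the same time. Giemsa staining divides chromosomes into light bands, which are GC-rich and hold most genes, and dark bands, which are AT-rich and gene-poor.

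The TSA-only intervals were mostly short, and together they made up a sizeable part of the DTP + TSA list. Their median length was 1800 bp, with quartiles of 1000 and 3000 bp and a range of 200 to 36400 bp. They covered 37.8 Mb, or 21.8% of the length of the autosomal DTP + TSA list. The 33495 DTP + TSA intervals that overlapped a DTP interval were longer, with a median of 2600 bp, quartiles of 1800 and 4600 bp and 130.4 Mb in all. DTP-only intervals had the same median as TSA-only ones, 1800 bp, but a narrower spread, with quartiles of 1200 and 2400 bp. An interval of greater length has more room to meet another list, so the rule itself bears on these lengths.

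The TSA-only set differed from the DTP-only set at both ends of the length scale. Intervals of up to 1 kb were 25.7% of TSA-only intervals and 21.4% of DTP-only intervals, against 6.19% of the DTP + TSA intervals that overlapped DTP. At the long end, 236 TSA-only intervals exceeded 10 kb, and 4 DTP-only intervals did. Above 16 kb there were 41 TSA-only intervals and no DTP-only interval. The longest DTP-only interval had 14200 bp.

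A class of lengths near 6 kb, which stood out in the DTP-only intervals, was not present as a local rise among the TSA-only ones. Lengths of 5.8 to 6.2 kb occurred in 209 TSA-only intervals, against 352 with 4.8 to 5.2 kb, which is 0.594 times as many (95% interval 0.498 to 0.707). Among DTP + TSA intervals that overlapped DTP this ratio stood at 1.21 (1.12 to 1.31). In DTP-only intervals it was 1.36 (1.08 to 1.72), from 178 and 131 intervals. The lack of a rise was not limited to the TSA-only set. Autosomal Parental intervals that share no base with the DTP or the DTP + TSA list had a ratio of 0.583 (0.499 to 0.680). DTP + TSA intervals that overlapped Parental intervals alone had 0.733 (0.485 to 1.10). A length near 6 kb is also that of a full-length LINE-1 element, a retrotransposon, and whether any of these intervals lie on one was not tested.

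**Figure D1:**
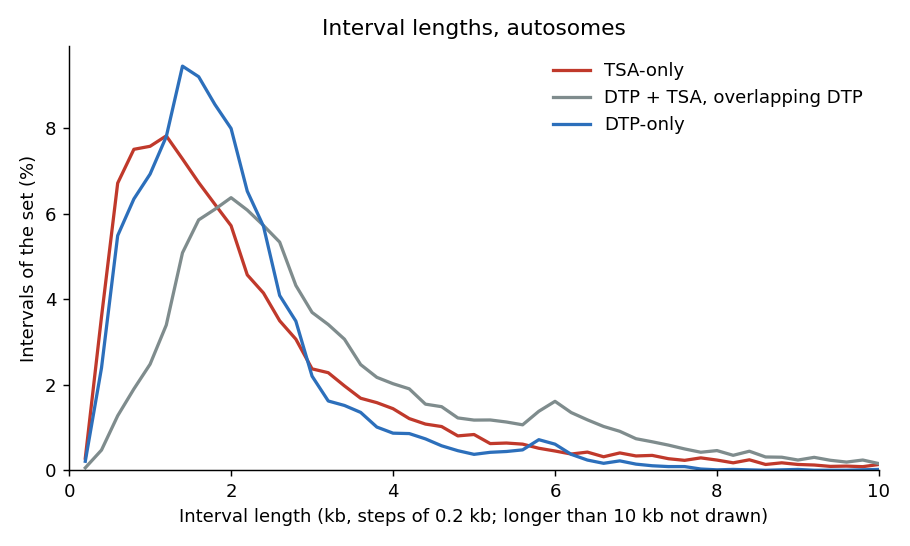
Share of each set (y axis, %) at each interval length (x axis, kb, in steps of 0.2 kb up to 10 kb) for TSA-only intervals, DTP + TSA intervals that overlap DTP, and DTP-only intervals on autosomes. TSA-only intervals have the largest share at short lengths and, unlike the other sets drawn here, no rise near 6 kb.

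The signal values are the authors' own and were compared within the DTP + TSA list alone, since no scaling between libraries is given. TSA-only intervals were of modest strength within that list. Their median mean signal was 10.2 (quartiles 8.07 and 13.3), which 41.5% of the autosomal list fell below. Their median summit value was 21 (quartiles 16 and 28), which 37.1% of the list fell below. The DTP + TSA intervals that overlapped DTP had a median mean signal of 11.9 and a median summit of 27. With the list divided at its quartiles of mean signal, TSA-only intervals made up 37.7%, 34.9%, 33.3% and 16.5% of the 4 classes, weakest first. Divided by summit value the shares were 39.6%, 38.9%, 33.1% and 10.6%. The set was thus spread over the lower 3 classes and thinned out in the strongest one, which still held 2100 of its intervals by mean signal. The rule rests on calls made from such signal, so it bears on these shares as well. By length, 62.9% of the list's intervals of up to 1 kb were TSA-only, and 6.77% of those above 16 kb were.

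At the border of the rule, 27 TSA-only intervals abutted an interval of another list with a gap of 0 bp, 17 of them next to DTP and 10 next to Parental intervals. These 27 had a median length of 2000 bp, a median mean signal of 10.7 and a median summit of 20. Just outside the rule, 79 DTP + TSA intervals had a whole overlap of 200 bp, the step of the grid on which all borders lie. They had medians of 1000 bp, 12.9 and 20.

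Most TSA-only intervals were not next to a DTP interval. The edge-to-edge distance to the nearest DTP interval had a median of 19 kb, with quartiles of 7.4 and 43.4 kb and a maximum of 543.2 kb. A gap of up to 1 kb was found for 2.75% of the members, 1 to 5 kb for 15.4%, 5 to 20 kb for 33.8%, 20 to 100 kb for 41.1% and over 100 kb for 6.99%. Within 5 kb of a DTP interval lay 2822 members, or 18.1% (17.5 to 18.8). Parental intervals, which are fewer, were farther away, with a median of 42 kb and 9.45% of the members within 5 kb. For DTP-only intervals the median distance to the nearest DTP + TSA interval was 18.8 kb, and 19.4% (18.6 to 20.1) lay within 5 kb. The distances of the mirror set were thus close to those of the TSA-only set.

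Set against the room that was available, TSA-only intervals were denser 1 to 20 kb from a DTP interval than farther away, and so were DTP-only intervals around the DTP + TSA list. The midpoints of 13.3% of TSA-only intervals lay within 5 kb of a DTP interval, against 14.1% of the autosomal length that is free of DTP intervals. Per free megabase, the density relative to the whole free length was 1.21 times at 1 to 5 kb, 1.33 times at 5 to 20 kb, 1.02 times at 20 to 100 kb and 0.439 times beyond 100 kb. In DTP-only intervals the same figures against the DTP + TSA list were 1.35, 1.22, 1.03 and 0.497 times. Below 1 kb the rule leaves room for few midpoints, since an interval that reaches its neighbour is no member. This bears on the share within 5 kb as well. The free length includes unassembled stretches of hg19.

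The members close to a DTP interval and those far from one were alike in signal and differed somewhat in length and place. Median mean signal was 9.97 with gaps of up to 1 kb and 10.1 with gaps over 100 kb. Median length was 2000 bp with gaps of up to 5 kb and 1600 bp with gaps over 20 kb. The share within 5 Mb of a chromosome end was 29.9% with gaps of up to 1 kb and 10.1% with gaps over 100 kb. The nearest DTP interval was itself still listed after TSA for 78.4% (77.8 to 79.1) of the members, whereas 72.1% of all autosomal DTP intervals were. The first share counts a DTP interval once for each member nearest to it, which its bracket does not allow for. The second counts each DTP interval once. Nor are the shares matched for place: DTP-only intervals were 10.8% of DTP intervals within 5 Mb of an end and 24.4% beyond. Nothing is therefore read from their difference.

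**Figure D2:**
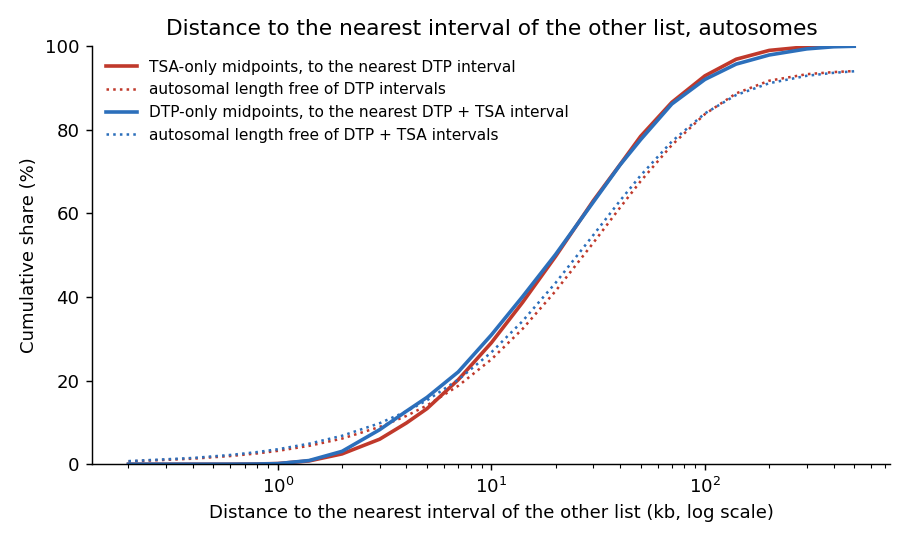
Cumulative share (y axis, %) of intervals whose midpoint lies within a given distance (x axis, kb, log scale) of the other list, for TSA-only intervals to the nearest DTP interval and DTP-only intervals to the nearest DTP + TSA interval, with dotted lines for the autosomal length free of that list. The solid curves run together, and within 5 kb the TSA-only curve stands at 13.3% where its dotted line is at 14.1%.

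Many TSA-only intervals shared a stretch between neighbouring DTP intervals with another member. Of the 45403 stretches of autosome between or beside DTP intervals, 9620 or 21.2% held a TSA-only interval. In 3197 stretches there were at least 2, and these held 9132 members, or 58.7%. At least 5 were found in 313 stretches, with 12.8% of the members. The stretches differ in length, and the same count was not made for DTP-only intervals, so these shares have no reference. The fullest stretches, which were singled out after their values were seen, were on chromosomes 22, 16, 8 and 17. In 22q13.32, 22 members with 99 kb lay in a gap of 419 kb between DTP intervals (chr22:48460401-48879400, hg19). A gap of 521 kb in 16q24.1 (chr16:84894601-85415600) held 19 members. In 8p23.3, 16 members lay in chr8:1949201-2247200, and in 17q25.3, 15 members lay in chr17:77135601-77376600.

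TSA-only intervals were densest near the ends of the chromosomes, and DTP-only intervals were not. Per Mb there were 17.3 TSA-only intervals within 2 Mb of a chromosome end, 16 at 2 to 5 Mb, 8.43 at 5 to 10 Mb, 5.84 at 10 to 20 Mb and 4 beyond 20 Mb. DTP-only intervals ran the other way, with 2.40, 2.28, 2.68, 3.28 and 3.92 per Mb over the same classes. The whole DTP list was denser near the ends, with 4191 intervals in the outer 195 Mb (within 5 Mb of an end) and 41190 in the other 2686 Mb. DTP-only intervals made up 10.8% and 24.4% of these. The DTP + TSA intervals that overlapped DTP were at 22.5, 15.2, 11.9, 10.7 and 11.2 per Mb, so that the marks shared with DTP were also densest in the outermost 2 Mb. Between 2 and 5 Mb from an end, TSA-only intervals made up 48.5% (46.9 to 50.1) of all DTP + TSA intervals. Beyond 20 Mb they made up 25.6% (25.1 to 26).

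Within 5 Mb of an end lay 3220 TSA-only intervals, or 20.7% (20.1 to 21.3) of the set. Among DTP-only intervals the number was 454, or 4.33% (3.95 to 4.73). The outer 5 Mb make up 6.77% of the autosomal length, counting only the long-arm end of the acrocentric chromosomes 13, 14, 15, 21 and 22. The DTP + TSA intervals that overlapped DTP had 10.6% there, and the 1835 that overlapped Parental intervals alone had 18.0% (16.3 to 19.9). The TSA-only share was 4.78 times the DTP-only share. That ratio was 2.05 with the upper quartile of each list by summit value, which leaves 1454 TSA-only and 126 DTP-only intervals, and 3.22 when the lists were first cut to the same number of intervals by mean signal.

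**Figure D3:**
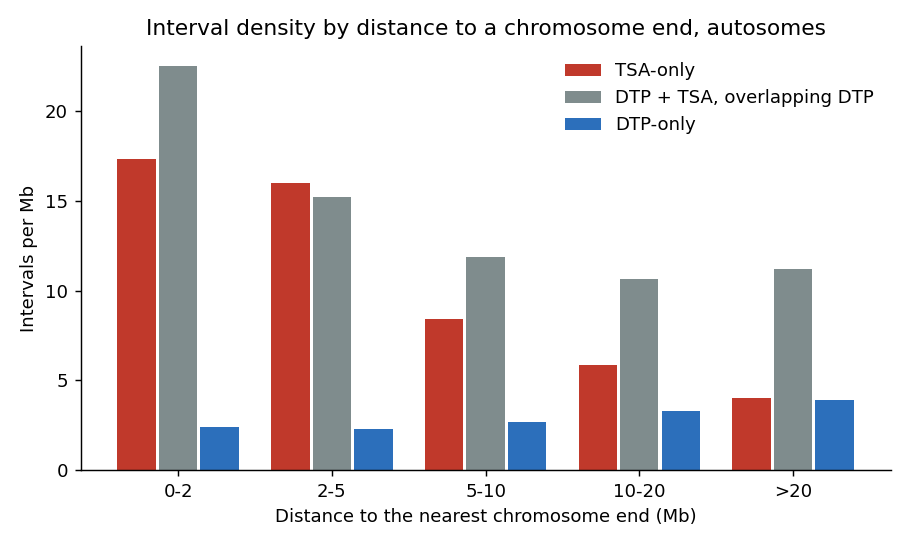
Intervals per Mb (y axis) by distance to the nearest chromosome end (x axis, Mb) for TSA-only intervals, DTP + TSA intervals that overlap DTP, and DTP-only intervals on autosomes. TSA-only bars fall with distance to 4 per Mb beyond 20 Mb, and DTP-only bars are highest there at 3.92 per Mb.

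Members near the chromosome ends were also longer. Their median length was 3000 bp within 5 Mb of an end and 1600 bp elsewhere, while the median mean signal was 9.76 and 10.4. The share of members within 5 Mb of an end was 8.19% at up to 1 kb, 14.6% at 1.2 to 2 kb, 25.5% at 2.2 to 4 kb, 45.4% at 4.2 to 8 kb and 64.4% above 8 kb. Of the 41 members above 16 kb, 35 or 85.4% (70.8 to 94.4) lay there. DTP-only intervals showed no such rise, with 4.86%, 4.10%, 4.60% and 3.09% over the first 4 classes and 0 of 13 above 8 kb, which allows a share of up to 24.7%. In the intervals that overlapped DTP the share was 6.81%, 5.82%, 8.10%, 13% and 37.3%.

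The pattern at the ends held for most but not all chromosome arms. Of the 39 ends, 36 had more TSA-only intervals per Mb than the autosomes as a whole, which had 5.40. At 36 ends there were more TSA-only than DTP-only intervals, but over all autosomes DTP-only intervals were also fewer, at 3.64 per Mb. The median end had 17.6 TSA-only and 2.2 DTP-only intervals per Mb. Highest were 9q with 146 TSA-only intervals, or 29.2 per Mb, against 6 DTP-only ones, then 13q with 123 against 14, 19p with 122 against 8, 16q with 120 against 3 and 10q with 117 against 14. At 9q the TSA-only intervals covered 16.7% of the outer 5 Mb. Lowest were 3p with 3 TSA-only against 6 DTP-only intervals, 9p with 8 against 17 and 18p with 25 against 32. At 3p the whole DTP + TSA list held 14 intervals.

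**Figure D4:**
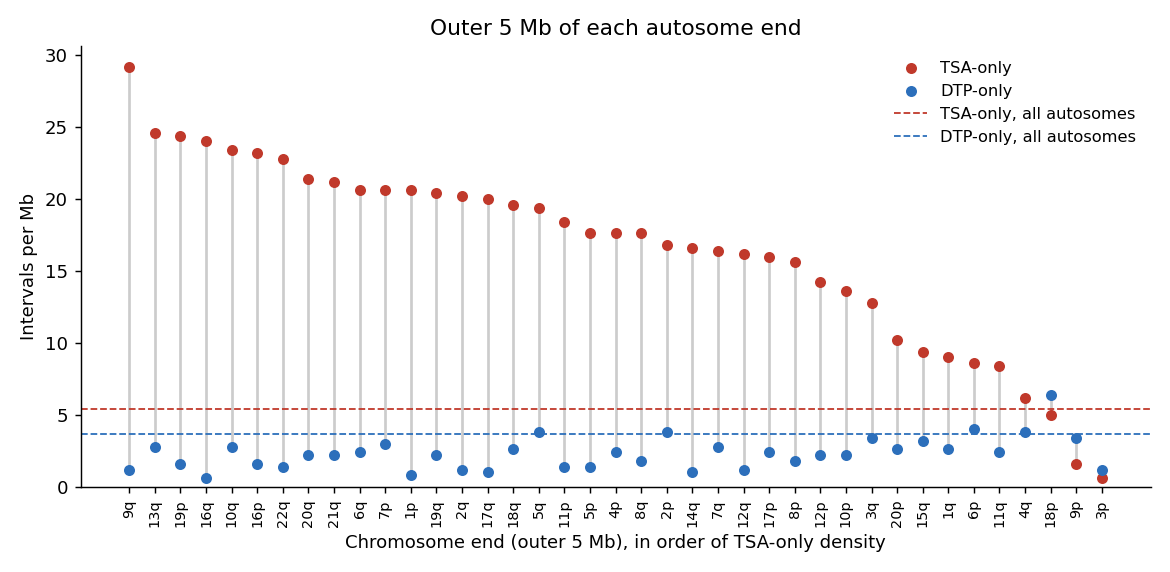
TSA-only and DTP-only intervals per Mb (y axis) in the outer 5 Mb of each of the 39 autosome ends (x axis), with dashed lines for their densities over all autosomes. At 36 ends the TSA-only point lies above the DTP-only point, and 18p, 9p and 3p at the right are the exceptions.

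TSA-only intervals lay mostly in light Giemsa bands. Unstained bands (gneg) held 60.3% (59.5 to 61.1) of them and 40.3% (39.4 to 41.2) of DTP-only intervals, and make up 42.4% of the autosomal length. The lean was not limited to the TSA-only set: the DTP + TSA intervals that overlapped Parental intervals alone had 57.4% (55.1 to 59.7) in gneg bands, and those that overlapped DTP had 48.9% (48.3 to 49.4). TSA-only density was 7.68 per Mb in gneg, 8.04 in the palest stained class (gpos25), 4.70 in gpos50, 3.39 in gpos75 and 2.69 in the darkest class (gpos100). DTP-only density over the same classes was 3.46, 3.28, 3.70, 4.33 and 4.89 per Mb. The intervals that overlapped DTP were at 13.4, 15, 11, 10.7 and 10.1 per Mb. Median TSA-only length was 2000 bp in gneg and 1200 bp in gpos100, and that of the intervals that overlapped DTP was 3000 and 2400 bp. The gradient was not limited to chromosome ends. More than 5 Mb from any end, TSA-only density was 6.16 per Mb in gneg and 2.69 in gpos100, while DTP-only density was 3.63 and 4.90.

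The classical sites of constitutive heterochromatin held few of the members. Centromeric bands (acen) had 95 TSA-only intervals, or 0.967 per Mb, and variable heterochromatic bands (gvar) had 51, or 0.520 per Mb. DTP-only intervals numbered 177 and 49 there, or 1.8 and 0.5 per Mb. The DTP + TSA intervals that overlapped DTP numbered 591 and 391, or 6.02 and 3.99 per Mb, against 11.6 over all autosomes. TSA-only intervals thus made up 13.6% and 10.5% of the DTP + TSA intervals in these bands, against 30.6% over all autosomes. These bands contain long unassembled and repetitive stretches in hg19, where reads cannot be placed uniquely, and what the authors did with such reads is not given in the sources used here.

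Across whole chromosomes, TSA-only density was highest on 19, 17, 22 and 20 and lowest on 4, 21, 8 and 3. Chromosome 19, which carries the most genes per megabase and large clusters of zinc finger genes, had 847 TSA-only intervals or 14.3 per Mb, against 114 DTP-only intervals or 1.93 per Mb. Chromosome 17 had 9.42 TSA-only against 2.27 DTP-only per Mb, chromosome 22 had 8.21 against 1.4 and chromosome 20 had 7.76 against 2.92. Lowest was chromosome 4, with 606 TSA-only intervals or 3.17 per Mb against 901 DTP-only intervals or 4.71 per Mb. Chromosome 21 had 4.16 TSA-only against 1.81 DTP-only per Mb, chromosome 8 had 4.18 against 4.19 and chromosome 3 had 4.28 against 4.32. TSA-only intervals outnumbered DTP-only ones on 19 of 22 autosomes. Over all autosomes the sets numbered 15555 and 10492, or 5.40 and 3.64 per Mb, so an excess of TSA-only intervals is the base for such counts. As a share of a chromosome's DTP + TSA intervals, the TSA-only set reached 48.8% (45.4 to 52.2) on chromosome 22 and 48.3% (45.8 to 50.8) on chromosome 17, and stood at 22.5% (20.9 to 24.1) on chromosome 4. On chromosome 19 that share was 34.8%, with 25.1 intervals per Mb that overlapped DTP. On chromosome 21 it was 37.7% (33.5 to 41.9). Densities use full hg19 lengths, which include the unassembled short arms of chromosomes 13, 14, 15, 21 and 22.

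Genes could be placed by band only, since no hg19 gene annotation was used. Protein-coding genes of a GRCh38 table were assigned to bands by position, and intervals were counted in the hg19 band with that name. A gene's value below is therefore that of its band, shared with every other gene of the band, and says nothing of the gene's own body or promoter. The TSA-only density rose with the number of genes per Mb. In quintiles of 774 bands, gene-poorest first, it was 2.12, 3.44, 4.80, 6.93 and 10.7 per Mb, a 5.05-fold span. DTP-only density was 3.27, 4.53, 4.11, 3.52 and 2.59 per Mb over the same quintiles. The DTP + TSA intervals that overlapped DTP were also sparser in gene-poor bands, with 6.95, 11.6, 12.5, 14.4 and 13.4 per Mb, and so was the whole DTP list, with 10.7, 16.4, 17.1, 18.6 and 16.4. There were thus 0.648 TSA-only intervals for each DTP-only interval in the poorest quintile and 4.13 in the richest. Over all autosomes the sets numbered 15555 and 10492. With lists cut to the same number of intervals by mean signal the TSA-only span was 3.67-fold. The DTP-only ratio of richest to poorest quintile was 0.791 in the full lists and 0.993 in the lists cut in this way, so that no lean to gene-poor bands was seen there. With the upper quartile of each list by summit value, which leaves 126 DTP-only intervals, it was 1.02.

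**Figure D5:**
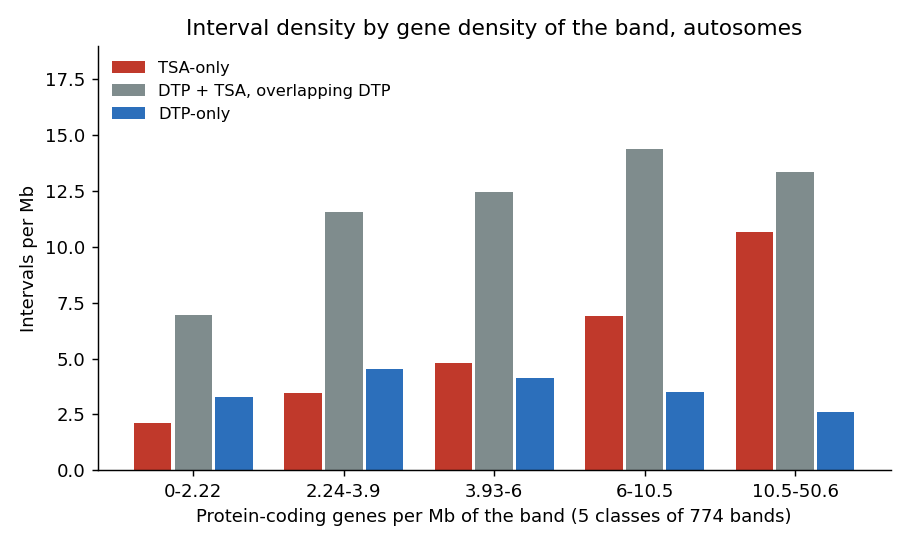
Intervals per Mb (y axis) in quintiles of the 774 autosomal bands of at least 1 Mb ordered by protein-coding genes per Mb (x axis), for TSA-only intervals, DTP + TSA intervals that overlap DTP, and DTP-only intervals. TSA-only bars rise over all 5 quintiles to 10.7 per Mb, and DTP-only bars fall over the last 4 to 2.59 per Mb.

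Gene density and nearness to an end were each accompanied by more TSA-only intervals when the other was held. Within 5 Mb of an end, TSA-only density was 5.78 per Mb in the poorest 2 quintiles of bands, 15.5 in the middle one and 19 in the richest 2. Beyond 20 Mb it was 2.50, 3.99 and 6.36. DTP-only density was 2.46, 3.64 and 1.99 per Mb within 5 Mb and 4.09, 4.26 and 3.41 beyond 20 Mb. The DTP + TSA intervals that overlapped DTP had 10.5, 19.9 and 19.3 per Mb within 5 Mb and 9.25, 12.2 and 13.5 beyond 20 Mb. That set was thus also denser near ends and sparser in gene-poor bands. GC content and repeats, which also vary with band and distance to an end, were not tested.

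The 10 densest bands of at least 1 Mb were all at or near a chromosome end or on 19q, and 9 of the 10 were light or pale (gneg or gpos25). At the top was 8p23.3, with 72 TSA-only intervals or 32.7 per Mb, against 7 DTP-only intervals. That band holds CLN8, a membrane protein of the endoplasmic reticulum, and DLGAP2, a scaffold protein of synapses. The second was 22q13.32, with 32 intervals in 1 Mb and 16.2% of its length covered, against 1 DTP-only interval. Its only protein-coding gene in the table is TAFA5, which encodes a secreted protein. In 9q34.3 there were 118 TSA-only intervals or 30.9 per Mb, against 6 DTP-only intervals, covering 17.4% of the band. It holds NOTCH1, a receptor of cell-to-cell signalling, TRAF2, an adaptor of TNF receptors, and EHMT1, a methyltransferase of H3K9.

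On the long arm of chromosome 19, 19q13.42 had 78 TSA-only intervals (28.9 per Mb) against 5 DTP-only ones, and 19q13.33 had 96 (28.2 per Mb) against 5. The first holds the KIR and LILR families of immune receptors, and the second holds RPL13A, a ribosomal protein, BAX, a mediator of apoptosis, and PRMT1, an arginine methyltransferase. In 16q24.1, with FOXF1, a transcription factor of lung mesenchyme, and IRF8, one of myeloid cells, there were 76 (26.2 per Mb) against 1. In 9q34.2 there were 39 (26 per Mb) against none. That band holds WDR5, a subunit of H3K4 methyltransferase complexes, and BRD3, a reader of acetylated lysine. Next was 13q34, with 123 (25.3 per Mb) against 14. It holds the basement membrane collagen gene COL4A1, IRS2, an adaptor of the insulin receptor, and GAS6, the ligand of AXL.

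The last of the 10 were 11p15.5 with 70 TSA-only intervals against 1 DTP-only interval and 7p22.3 with 70 against 2, both at 25 per Mb. The first holds HRAS, IGF2 and the mucin gene MUC5AC, and the second holds PDGFA, a growth factor, and LFNG, which modifies Notch. The genes named in these bands were picked for their known roles after the bands were known. At the other end, 43 bands had no TSA-only interval, and 28 of these had no DTP + TSA interval at all. The 43 bands tied, so the 5 named by the rule, 6q11.1, 7p11.1, 9p11.1, 9q11 and 9q12, are an arbitrary choice among them. These 5 are centromeric or variable, and 9p11.1, 9q11 and 9q12 had no DTP + TSA interval. The light band 14q31.2 also had no TSA-only interval, beside 6 intervals that overlapped DTP. Over all 774 bands the median was 4.21 TSA-only intervals per Mb. TSA-only intervals outnumbered DTP-only ones in 408 bands, were fewer in 303 and equal in 63. The whole sets numbered 15555 and 10492.

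In windows of 1 Mb the members were unevenly spread. The median of 2875 windows was 4 members, with quartiles of 2 and 7, and 334 windows had none. The top decile of the windows, with at least 12 members each, held 35.6% of the TSA-only intervals, and 42.9% of these windows lay within 5 Mb of an end, against 6.78% of all windows. The top decile for DTP-only intervals held 25.5% of that set. A pair of windows had the most TSA-only intervals, 41 each against 2 DTP-only ones: chr19:51000001-52000000, where they covered 173.8 kb, and chr17:77000001-78000000 in 17q25.3. The midpoint of the window on chromosome 19 lies in 19q13.41. That whole band has 29 TSA-only intervals, so the window reaches beyond it. The next were chr8:1000001-2000000 in 8p23.3 with 40 TSA-only against 6 DTP-only intervals and chr10:133000001-134000000 in 10q26.3 with 38 against 3. The window chr9:137000001-138000000, whose midpoint lies in 9q34.3, had 38 against 0. On chromosome 9 the 38 intervals covered 279 kb of their window.

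For gene lists, the values are medians over the genes of a list of the TSA-only density of each gene's band. Over all 19122 autosomal protein-coding genes the median was 6.53 TSA-only and 2.92 DTP-only intervals per Mb. Of the 14 lists, 8 lay above this and 6 below, and no list was tested against others. Genes that share a band enter a median each time, so the median of a clustered list can be the value of a single band. Highest were 18 housekeeping genes at 11.5 TSA-only against 2.59 DTP-only per Mb, with 12 of 18 above the median of all genes. Examples are RPL13A at 28.2 TSA-only per Mb, SDHA, a subunit of the mitochondrial succinate dehydrogenase, in 5p15.33 at 19.3, and B2M, the light chain of MHC class I, in 15q21.1 at 2.55. The 542 zinc finger genes of the C2H2 type, whose clusters are a known target of H3K9me3, had 9.48 TSA-only against 2.12 DTP-only per Mb. In their bands the intervals that overlapped DTP were dense as well, with a median of 23.4 per Mb against 12.5 over all coding genes.

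Genes of the EGFR pathway and of receptors that can bypass it are of interest because the cells were under erlotinib. The 28 genes had a median of 8.66 TSA-only against 3.00 DTP-only per Mb, and 16 of 28 lay above the median of all genes. EGFR itself, in 7p11.2, was in a band with 17 TSA-only intervals or 4.25 per Mb, against 1.25 DTP-only per Mb. That band was rich in intervals that overlapped DTP, with 28 per Mb against a median of 12.5 over all coding genes. TSA-only intervals made up 11.9% of its DTP + TSA intervals, against 30.6% over all autosomes. MAP2K2, a kinase of the MAPK cascade, was in 19p13.3 at 23.5 TSA-only against 1.88 DTP-only per Mb. AXL, a receptor kinase bound by GAS6, was in 19q13.2 at 14.5 against 3.19. YAP1, an effector of the Hippo pathway, in 11q22.1, had 2.24 against 6.53. The list thus ran from bands with more TSA-only to bands with more DTP-only intervals, with 22 of 28 genes in the first kind. Of all protein-coding genes, 74.7% were in bands of that kind.

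Among the 13 autosomal genes for H3K9 methyltransferases and readers, the median was 7.37 TSA-only against 2.65 DTP-only per Mb, and 7 of 13 lay above that of all genes. EHMT1 was at 30.9 TSA-only per Mb and PRDM16, an H3K9 methyltransferase of the PR domain family, in 1p36.32 at 22.3, while SETDB1 in 1q21.3 was at 4.89 and SUV39H2 in 10p13 at 4.31. For 9 genes of H3K9 demethylases the median was 5.43 against 3.50, with KDM4B in 19p13.3 at 23.5 and KDM4C in 9p24.1 at 2.50 TSA-only per Mb. The 8 autosomal genes of class I and II histone deacetylases, classes that include enzymes inhibited by TSA, had 8.07 against 2.95. HDAC10 in 22q13.33 was at 23.1 TSA-only per Mb, HDAC4 in 2q37.3 at 19.8 and HDAC7 in 12q13.11 at 4.07, with 5.93 DTP-only per Mb in the last band.

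Interferon and nucleic acid sensing genes, which respond to double-stranded RNA from repeats among other triggers, had a median of 4.92 TSA-only against 2.50 DTP-only per Mb, with 11 of 23 above the median of all genes. Their bands ranged widely, with IRF3 in 19q13.33 at 28.2 TSA-only per Mb and IFNB1, the gene of interferon beta, in 9p21.3 at 1.58 against 6.32 DTP-only per Mb. The 20 lung epithelial genes had 6.95 against 2.78, with NAPSA, an aspartic protease of alveolar cells, in 19q13.33 at 28.2 TSA-only per Mb and NKX2-1, a lung lineage transcription factor, in 14q13.3 at 2.50 against 7.50 DTP-only per Mb. The 25 imprinted genes, in 14 bands, had 6.86 against 2.12, and 73 histone genes, in 9 bands, 7.22 against 3.33. For 39 HOX genes, in 4 bands, it was 5.60 against 2.00, and for 391 olfactory receptor genes, in 40 bands, 6.36 against 4.64. With each band counted once, TSA-only density was 9.77 per Mb for olfactory receptor, 9.37 for interferon and sensing and 8.34 for lung epithelial genes. It was 8.09 for histone, 7.41 for imprinted and 6.71 for HOX genes, against 5.40 over all autosomes. The 53 clustered protocadherin genes share 1 band, with 5.20 TSA-only against 3.80 DTP-only per Mb.

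Very long neuronal genes were the list farthest below the median of all genes. Their 23 autosomal members had a median of 2.86 TSA-only against 4.06 DTP-only per Mb. PTPRD, a receptor phosphatase, in 9p23 had 1.54 TSA-only against 2.69 DTP-only per Mb.

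The 10 longest TSA-only intervals were all in gneg bands, and 9 of them lay within 5 Mb of a chromosome end. An interval at chr22:47041601-47078000 in 22q13.31 had 36.4 kb, a mean signal of 11.0 and a summit of 53, and lay 26.2 kb from the nearest DTP interval. Another of 36.4 kb was at chr8:145530401-145566800 in 8q24.3, with a mean signal of 10.8 and also 26.2 kb from DTP. On chromosome 9, 9q34.3 held chr9:139388401-139418600 with 30.2 kb and chr9:138130401-138160000 with 29.6 kb. The first had a mean signal of 6.76, which 8.23% of the list fell below, and so was broad and weak.

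The others were chr2:240416601-240445800 in 2q37.3 with 29.2 kb, chr8:145721201-145750200 in 8q24.3 with 29 kb, chr14:101991001-102018600 in 14q32.31 and chr14:106345201-106372800 in 14q32.33 with 27.6 kb each, chr5:530401-554400 in 5p15.33 with 24 kb and chr22:50892001-50915400 in 22q13.33 with 23.4 kb. Their gaps to DTP ranged from 1.8 kb at 14q32.31 to 50.6 kb at 22q13.33. The interval at 14q32.31, 5.33 Mb from the end, was the one outside the outer 5 Mb. Among the 100 longest members 72% lay within 5 Mb of an end, and among the 1000 longest 56.8% did.

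One TSA-only interval had by far the highest summit. At chr18:105201-112600 in 18p11.32, 0.105 Mb from the end of the short arm, an interval of 7.4 kb had a summit of 3521 and a mean signal of 1095, which 99.97% of the autosomal list fell below. The nearest DTP and Parental intervals were 6.4 kb away. They belonged to a neighbouring site that was listed in all 3 states, at chr18:94601-99200 with a summit of 660 in DTP + TSA, at chr18:94001-98800 with a summit of 202 in DTP and at chr18:93801-98800 with a summit of 136 in Parental cells. A further site of all 3 lists, at chr18:128801-133000 in DTP + TSA, had summits of 34, 33 and 30 in DTP + TSA, DTP and Parental cells. No scaling between libraries is given, so these summits are set side by side and not compared.

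The next summits were lower, 699 at chr4:190478401-190480800 in 4q35.2, 346 at chr2:3182401-3185600 in 2p25.3, 324 at chr1:2583601-2588000 in 1p36.32 and 270 at chr3:195437001-195444400 in 3q29. All 5 lay within 5 Mb of a chromosome end, at 0.674, 3.18, 2.58 and 2.58 Mb for these 4. Among the 100 members with the highest summits 43% lay there, and among the highest 1000 29.1% did. The member on chromosome 1 was 1.2 kb from a DTP interval and the one on chromosome 4 was 31.2 kb away.

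The 5 members farthest from any DTP interval lay on chromosomes 9, 1 and 4. The farthest, chr9:9716201-9719800 in 9p23, lay 543.2 kb from a DTP interval and 1291 kb from a Parental one, with 3.6 kb and a mean signal of 6.35. In 9p11.2 next to the centromere of chromosome 9, chr9:46981201-46981400 with 0.2 kb and chr9:46871801-46872200 with 0.4 kb lay 540.2 and 430.8 kb away, with mean signals of 15 and 22.7. The other two were chr1:28907201-28908200 in 1p35.3, 447 kb away with 1 kb and a mean signal of 7.31, and chr4:33189401-33191000 in 4p15.1, 402.4 kb away with 1.6 kb and a mean signal of 9.18.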

How the data were processed

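Each H3K9me3 library has 1 deposited list of enriched intervals whose columns give position, summit, bin number, peak and average values, per the file headers. The summit and mean values are signal values made by the authors, per the file headers, with no scaling between libraries stated. Per the submitters' processing notes, the tools are BWA and SICER and the builds hg19 and dm3, with no versions stated and no role for dm3. Neither thresholds and controls nor read depth appear in the sources used here, so the precision that depth gives is unknown, and a deeper library or looser threshold can add intervals. The lists hold no expression values, so the cell line was not checked against markers.

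Overlaps (at least 1 bp), edge-to-edge gaps and distances to hg19 chromosome ends were computed on autosomes, and coordinates are 1-based. A region was placed in a band by its midpoint. Bands came from circlize 0.4.16 under R 4.3.3. Of 59792 genes of a RefSeq table on GRCh38, 59675 were placed by band, and all 862 hg19 band names matched. Computation used scipy 1.17.1, pandas 2.3.3 and numpy 2.4.6 under Python 3.11.15, and plots matplotlib 3.10.9. The code was compared with a brute-force calculation on 2000 intervals sampled from the DTP + TSA list. It was also run on made-up intervals with known answers, and 7 of 7 checks passed. The members, lists and comparisons were chosen with earlier results of these data known. Regions named are the 10 longest members, the 5 with the highest summit and the 5 farthest from DTP. Also named are the 10 densest bands of at least 1 Mb, 5 of the bands tied as sparsest and the 5 fullest windows. The autosomes named have the 4 highest and 4 lowest densities. Alternatives were 10 other rules of overlap, joining, strength, length and chromosome set. Some genes of the lists are not reported here. No sequence is shown, because no hg19 genome was used here.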

Additional observations from a re-analysis of the deposited data

How the results depend on the processing

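Under 10 alternatives the TSA-only set numbered 1454 to 17390 intervals, against 15555. Counting as shared only overlaps of 50% or more gave 22.1% within 5 Mb of an end, 25% within 5 kb of DTP and a median of 2000 bp. Members more than 5 kb from both lists gave 18.7% near ends and, by construction, 0% near DTP. Joining of intervals within 5 kb gave 15.0% near ends, 5.11% near DTP, 1600 bp, a mean signal of 10.3 and 57.4% in gneg bands. The upper part of each list by mean value gave 6332 members, 17.6% near ends, 1200 bp, 14.2 and 57.9%. The upper quartile by summit gave 1454 members, 27.7% near ends, 20.7% near DTP, 2400 bp, 17.4 and 64.5%. Equal numbers of the strongest intervals gave 7449 members, 17.0% near ends, 11.0% near DTP, 1400 bp, 14.6 and 57.2%. Without intervals of up to 1 kb there were 25% near ends, 2200 bp, 9.32 and 63.3%. Absence from DTP alone gave 19.4% near DTP. All chromosomes together, and removal of centromeric, variable and stalk bands, gave 16016 and 15409 members and left each share and median inside the 95% interval of its reported value. Except where the construction shows it, the cause was not tested.

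The same 10 alternatives were applied to ratios chosen after seeing the data. The ratio of the TSA-only to the DTP-only share near ends was 2.05 to 5.98 (main 4.78), that of the gneg shares 1.33 to 1.60 (1.5), and that of the median lengths 0.778 to 1.2 (1). Richest over poorest quintile of bands by genes was 3.67 to 6.55 for TSA-only (5.05) and 0.689 to 1.02 for DTP-only (0.791), the last passing 1 with the upper quartile by summit, where it was 1.02. With 1 library per state, TSA, library depth and calling cannot be told apart. No paired analysis was possible because each state has 1 library.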
